A study of Mus musculus with 4 samples.

Results

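Levels of 10 genes of the interleukin-1 (IL-1) family and the inflammasome were followed through the immune cells of MC38 tumors, namely Il1b, Il1a, Il1f9, Il18, Il1rn, Il1r2, Il1r1, Il18bp, Nlrp3 and Casp1. They were listed by name, by a rule that uses no value, out of the 19059 genes that the probe set covers, and all 10 were counted. The list was nonetheless chosen with earlier results of these data known. MC38 is a transplanted colon carcinoma line of C57BL/6 mice. B-hCTLA-4 mice on the C57BL/6 strain, which carry humanized CTLA-4, received MC38 cells under the skin and were treated from a tumor size of about 100 mm3 with 3 intraperitoneal treatments. Day 8 after the start, tumors of 11 mice per group were pooled, and CD45+ cells were sorted, fixed and probed by the 10x Flex protocol. Each pool gave 1 deposited count matrix, called a library here. Per the article, samples received barcoded probes and were pooled for loading. The groups were isotype control (hIgG1, 10 mg/kg), 2 single antibodies, and the combination of ipilimumab, a human IgG1 against CTLA-4, at 10 mg/kg with the anti-mouse FcgRII antibody AT130-2 in the mIgG1-N297A format, whose Fc part is silenced, at 20 mg/kg. Title and treatment field contradict each other for both single antibodies, each naming a different antibody. These libraries are therefore called titled-CTLA-4 and titled-FcgRII after their titles, and it was not settled which of the 2 had received ipilimumab. The article gives another dose, day, tumor size and number of tumors for this experiment.

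IL-1α and IL-1β, encoded by Il1a and Il1b, signal through the receptor encoded by Il1r1, whereas the receptor antagonist encoded by Il1rn and the decoy receptor encoded by Il1r2 hold that signal back. IL-1β and IL-18 are made as inactive precursors, which caspase-1 (Casp1) cleaves once a sensor such as NLRP3 has assembled an inflammasome, and IL-18 binding protein (Il18bp) captures free IL-18. Myeloid cells are the main source of these cytokines in tumors, and RNA levels say nothing of cleavage or release.

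Il1a and Il1b lie 54597 bases apart on the minus strand of chromosome 2 (GRCm38), at chr2:129299610-129309972 and chr2:129364570-129371139. Their core promoters are shown because both genes were highest in neutrophils and yet stood far apart in monocytes, where the level in the combination was 10.8-fold (9.03 to 12.9) that of isotype control for Il1a and 1.75-fold (1.71 to 1.80) for Il1b. The 100 bases before each start, from the RefSeq promoter table of GRCm38.p6, are given 5′ to 3′ on the strand of the gene, with the motif TATAAA in capitals.
Il1a, chr2:129309973-129310072: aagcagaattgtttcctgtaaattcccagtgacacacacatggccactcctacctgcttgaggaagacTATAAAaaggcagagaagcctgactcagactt
Il1b, chr2:129371140-129371239: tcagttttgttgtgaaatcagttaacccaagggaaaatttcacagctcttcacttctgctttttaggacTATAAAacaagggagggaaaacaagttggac
The motif began 32 bases before the start of Il1a and 31 bases before that of Il1b. TATAAA on the strand of the gene stood within the 50 bases before the start in 2 of the 14 promoter entries of the 10 genes and in 2.63% of all 32851 promoters in the table. Searched on both strands of the 250 bases before the start, TATAAA was found in 3 of the 14 entries, those of Il1a, Il1b and Il18, and in 12.4% of all promoters. The match describes these letters and is no evidence of use.

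The 4 libraries held 129151823 to 196362818 unique molecular identifiers (UMIs), and between 5779 and 7741 cells per library were kept, 26785 in all, with no cell barcode shared between libraries. Clusters made without the 10 genes were named from marker lists as neutrophil-like, monocyte-like, macrophage-like, dendritic-like, T-like and NK/ILC1-like, called by the plain names below, and 3 clusters with markers of both monocytes and macrophages were kept apart as intermediate. The largest of these had a higher mean marker score for macrophages, 0.517, than for monocytes, 0.150. It was kept apart because a monocyte marker, Ccr2, and no macrophage marker was among its leading genes. The smallest, led by Retnla, Saa3 and Lyve1, scored 0.857 for macrophages and 0.773 for monocytes. The remaining one, led by Nos2, Ly6i and Slpi, scored 0.237 for monocytes and 0.222 for macrophages, with no marker of either among its leading genes. The article describes Nos2-high M1 macrophages, and the macrophage class here leaves this cluster out. Whether these are the same cells was not tested. A cluster with both T cell and macrophage markers, of 806, 248, 357 and 689 cells in isotype control, the titled-CTLA-4 library, the titled-FcgRII library and the combination, entered no class. Values of the 4 libraries are given in that order throughout. The classes held 116, 94, 50 and 468 neutrophils, 1011, 644, 403 and 623 monocytes, 764, 606, 605 and 808 intermediate cells, 3725, 3034, 3583 and 3406 macrophages, 239, 149, 96 and 121 dendritic cells, 499, 690, 277 and 493 T cells and 357, 425, 240 and 441 NK/ILC1 cells. Monocytes of isotype control lay mostly in a cluster led by Ace, Adgre4 and Nr4a1, with 539 cells against 472 in one led by Plac8, Chil3 and Vcan, and those of the combination mostly in the latter, with 215 and 408 cells. Each level below is the UMIs of a gene summed over a class per 1000000 UMIs of that class (CPM). Macrophage markers summed to 12905, 8211, 21211 and 8434 CPM in the neutrophil class, beside 34910.5 to 43112 CPM in macrophages. The part of macrophage RNA in neutrophil levels was not tested. With 1 library per group there was no replicate error and no test, and the group cannot be told apart from its library. Intervals in parentheses are 95% intervals of counting error alone. Levels are compared between cells and libraries, never between genes, because genes carry different numbers of probes.

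Of the 10 genes, 8, all but Il1r1 and Casp1, had their highest median over the libraries in neutrophils. The ranges of Il1a, Il18 and Il18bp there overlapped those of the next class. In the titled-FcgRII library Il18 stood at 40.4 CPM in neutrophils and 67.7 CPM in monocytes. Il18bp stood there at 57.3 CPM in neutrophils and 83.0 CPM in intermediate cells. A level is a share of class UMIs and not UMIs per cell. Median UMIs per cell were 2999, 3134.5, 3520 and 3208 in neutrophils, beside 18018 to 24197 in macrophages. Il1b ranged over the 4 libraries from 6146 to 10486 CPM in neutrophils, 1039.9 to 1848 CPM in monocytes, 731 to 1438 CPM in intermediate cells, 752 to 1339.7 CPM in dendritic cells, 223 to 435 CPM in macrophages, 109.9 to 337 CPM in T cells and 8.07 to 109 CPM in NK/ILC1 cells. The range of neutrophils did not overlap that of monocytes, nor did that of dendritic cells overlap that of macrophages, whereas monocytes, intermediate cells and dendritic cells overlapped with one another. Il1f9, which encodes IL-36γ, an agonist of the IL-36 receptor, was the gene most restricted to 1 class, with 535 to 1294 CPM in neutrophils against 0.459 to 22.8 CPM in monocytes, the next in order. Il1r2 was high in 2 classes, neutrophils with 599 to 771 CPM and dendritic cells with 333 to 438 CPM, and T cells came next with 55.3 to 164 CPM. Casp1 was the most even gene, from 169 to 204 CPM in monocytes, its highest class, to 80.8 to 98.4 CPM in NK/ILC1 cells, its lowest. Il1r1 was close to absent from these CD45+ cells, with at most 5.88 CPM in any of the 7 classes and any library, and its highest median lay in T cells.

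**Figure D1:**
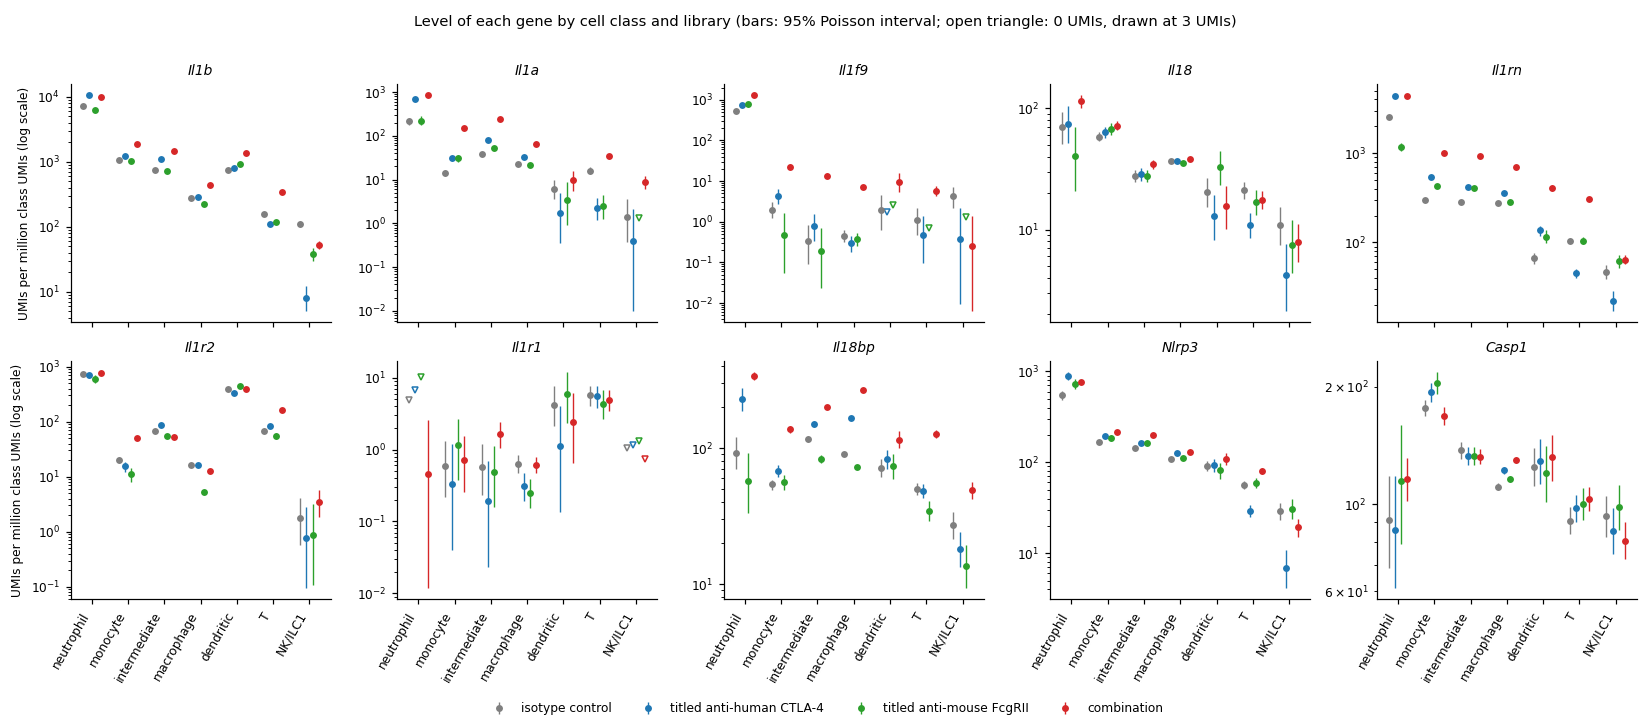
UMIs per 1000000 UMIs of a class (log axis) for each of the 10 genes, by cell class on the horizontal axis and by library in color, with 95% Poisson intervals. An open triangle stands for 0 UMIs and is drawn at 3 UMIs. Il1b, Il1a, Il1f9, Il1rn and Nlrp3 fall from neutrophils to NK/ILC1 cells, and the combination points of Il1rn in monocytes (996 CPM) and macrophages (693 CPM) stand above the other 3 libraries.

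The comparison of the combination with isotype control describes how the library given both antibodies stood against the control library. Il1a, Il1rn and Il18bp stood well above isotype control in most myeloid classes, Il1b less so, and Nlrp3 and Casp1 differed little. Among genes with at least 50 CPM in 1 of the 2 libraries, at least 2-fold higher in the combination were 3 of 9 of the family in neutrophils against 3.42% of all genes there, 4 of 8 in monocytes against 2.36%, 2 of 7 in intermediate cells against 2.9%, and 3 of 6 in macrophages against 2.03%. Dendritic cells had 1 of 6 against 2.31%, and T cells 4 of 6 against 1.27%. None of the 10 stood at least 2-fold lower in these 6 classes, where 6.96%, 0.39%, 1.35%, 0.582%, 1.45% and 0.543% of all genes did. The median ratio of the members at that level was 1.64, 2.13, 1.72, 2.06, 1.40 and 2.27 in that order of classes, beside 0.873 to 0.974 for all genes at that level. The shift of all genes was widest in neutrophils, where TMM factors of 1.11 for isotype control and 0.90 for the combination raised each ratio and brought 5 of the 9 members to 2-fold, beside 7.84% of all genes. In NK/ILC1 cells 0 of 3 stood higher, beside 0.721% of all genes, and 1, Il1b, lower, beside 2.57%, with 85.9% of its 312 UMIs in isotype control on 10 cells. The remaining members were under 50 CPM in both libraries and entered no count.

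**Figure D2:**
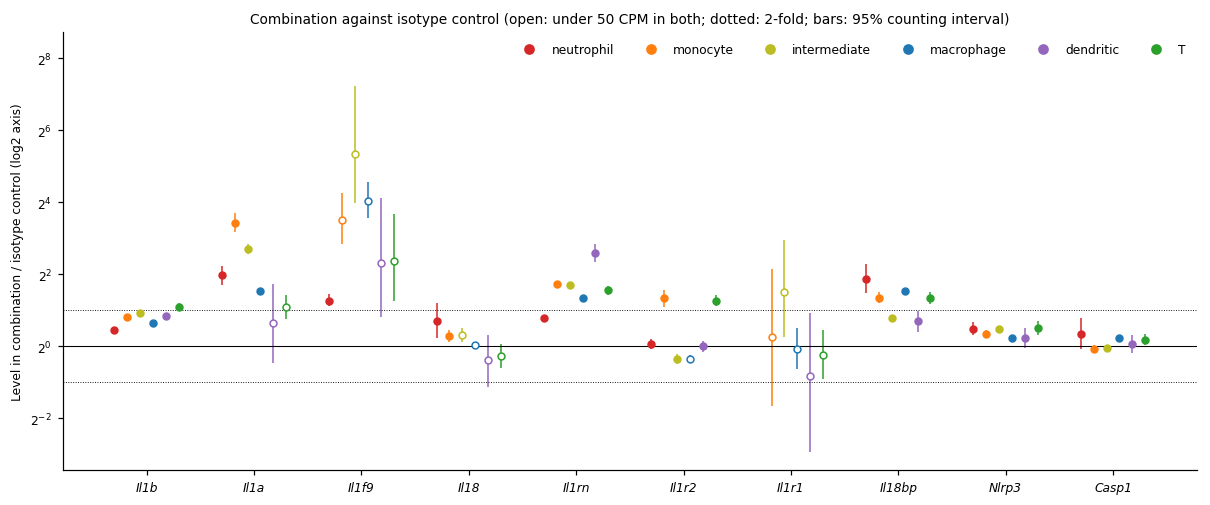
Ratio of the level in the combination to that in isotype control (log2 axis) for the 10 genes, with classes in color, 95% counting intervals, dotted lines at 2-fold, and open points where both libraries were under 50 CPM. Il1a, Il1rn and Il18bp lie at or above 2-fold in several classes, while Nlrp3 lies between 1.18 and 1.42 and Casp1 between 0.957 and 1.27 in these 6 classes.

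Among the agonists, Il1b stood above isotype control in the combination in all 6 classes, by less than 2-fold except in T cells. In neutrophils it stood at 7170.2 CPM in isotype control, 10486 CPM in the titled-CTLA-4 library, 6146 CPM in the titled-FcgRII library and 9832 CPM in the combination. The titled-CTLA-4 library was thus the highest here, and the combination was 1.37-fold (1.33 to 1.42) above isotype control. Monocytes held 1054, 1216, 1039.9 and 1848 CPM, a combination-to-isotype ratio of 1.75 (1.71 to 1.80), and intermediate cells held 756, 1087, 731 and 1438 CPM, a ratio of 1.90 (1.86 to 1.95). Within the monocyte clusters led by Ace and by Plac8 the ratio was 1.51 (1.43 to 1.59) and 1.54 (1.5 to 1.59). Il1f9, found mostly in neutrophils, reached 45.1 CPM in the combination cells of the cluster led by Ace, from 3.52 CPM under isotype control. For the cluster led by Plac8 these levels were 12.7 and 0.403 CPM. The part of neutrophil RNA in the ratios of these clusters, for Il1b and the genes below, was not tested. Within the intermediate clusters the Il1b ratio was 1.80 (1.75 to 1.86) in the largest and 1.24 (1.19 to 1.29) in the one led by Nos2, the gene of inducible nitric oxide synthase. It was 0.966 (0.715 to 1.30) in the smallest, of 37 and 31 cells. The cluster led by Nos2 had 92 of the 764 intermediate cells under isotype control and 278 of 808 in the combination. In both classes the combination was the highest of the 4 libraries, and isotype control and the titled-FcgRII library were the lowest. Macrophages gave 275, 284, 223 and 435 CPM, a ratio of 1.58 (1.56 to 1.61). Without integration of the libraries the ratio in macrophages was 2.49. Dendritic cells gave 752, 799.6, 920.0 and 1339.7 CPM, a ratio of 1.78 (1.68 to 1.89). Within the 10 macrophage clusters Il1b was above isotype control beyond its interval in 9 and below it in 1, a cluster of 97 and 40 cells led by Hspa1a, Hspa1b and dividing-cell genes, where it stood at 209.7 CPM under isotype control and 75.6 CPM in the combination.

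Among members with at least 50 CPM in the combination, Il1a in monocytes had the highest ratio. Monocytes held 14 CPM in isotype control, 30.6 CPM in the titled-CTLA-4 library, 30.3 CPM in the titled-FcgRII library and 150.4 CPM in the combination, so that the combination was 10.8-fold (9.03 to 12.9) above isotype control and 4.92-fold (4.22 to 5.77) and 4.97-fold (4.15 to 5.99) above the titled-CTLA-4 and the titled-FcgRII library. Both single-antibody libraries lay between isotype control and the combination. Within the clusters led by Ace and by Plac8 the ratio to isotype control was 22.4 (13 to 42) and 7.46 (6.20 to 9.03). Summed over monocytes, intermediate cells and macrophages together, the ratio to isotype control was 4.00. Intermediate cells held 37.5, 80.2, 51.4 and 244 CPM and a ratio of 6.50 (5.89 to 7.18), or 3.32 without integration. Macrophages held 22.4, 33.2, 21.9 and 65.0 CPM and a ratio of 2.91 (2.76 to 3.06). Neutrophils held 213, 685, 222 and 834 CPM and a ratio of 3.91 (3.28 to 4.71). Here the titled-CTLA-4 library was also 3.21-fold (2.61 to 3.97) above isotype control, in a class where 2.71% of all genes were at least 2-fold higher in that comparison. Dendritic cells stayed under 10 CPM in every library. Within the intermediate class Il1a was highest in 1 cluster led by Nos2 with Ly6i, Slpi and Cxcl3, which had 92, 123, 73 and 278 cells. Il1a stood there at 173, 322, 254 and 515 CPM, a ratio of 2.98 (2.65 to 3.37), and in the largest intermediate cluster the ratio was 5.91 (4.98 to 7.07). In macrophages Il1a was above isotype control beyond its interval in 8 of 10 clusters.

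Il1f9 in neutrophils stood at 535 CPM in isotype control, 755 CPM in the titled-CTLA-4 library, 768 CPM in the titled-FcgRII library and 1294 CPM in the combination, and the combination was 2.42-fold (2.15 to 2.72) above isotype control. Neutrophils held 73.3%, 84.5%, 86.4% and 66.7% of all Il1f9 UMIs of the 4 libraries. Its level in macrophages was 0.441 CPM under isotype control and 7.30 CPM in the combination. S100a8, a neutrophil gene, moved in the same way there, from 9.11 to 66.6 CPM. Neutrophil RNA scaled to that S100a8 would hold 0.418 CPM of Il1f9 in macrophages of isotype control and 8.44 CPM in those of the combination. The scaling takes all S100a8 of a class as neutrophil RNA, which was not tested. The same scaling gave 24.7 CPM against 22.8 CPM measured in monocytes of the combination, and 13.4 CPM against 13.4 CPM in intermediate cells. In dendritic cells of the combination it gave 0.987 CPM against 9.59 CPM measured, from 16 UMIs.

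That scaling reached less far for the other genes. For macrophages of the combination it gave 64.1 CPM of Il1b out of 435 CPM, 28.3 of 693 CPM of Il1rn and 5.44 of 65.0 CPM of Il1a, and for those of isotype control 5.60 CPM of Il1b. Neutrophil markers summed to 143, 166, 140.3 and 349 CPM in macrophages and to 36291, 36439.9, 46187 and 28566 CPM in neutrophils. In macrophages without any S100a8 or S100a9 UMI, 91.1% of the class under isotype control and 64.6% in the combination, the ratio was 1.37 (1.34 to 1.40) for Il1b, 2.28 (2.14 to 2.43) for Il1a, 2.15 (2.11 to 2.19) for Il1rn and 2.78 (2.70 to 2.86) for Il18bp. Monocytes chosen in the same way were 93.5% of the class under isotype control and 74.2% in the combination. Their ratio was 1.88 (1.83 to 1.93) for Il1b, 12.6 (10.5 to 15.3) for Il1a, 3.19 (3.04 to 3.35) for Il1rn and 2.13 (1.88 to 2.42) for Il18bp. How these monocytes divided between the clusters led by Ace and by Plac8 was not counted. Il1f9 in such macrophages stood at 0.154 CPM under isotype control and 1.19 CPM in the combination, from 11 and 66 UMIs, a ratio of 7.73 (4.05 to 16.2). In such monocytes it stood at 0.332 and 4.26 CPM, from 3 and 21 UMIs, a ratio of 12.8 (3.84 to 67.3). All of these ratios were above 1. A cell without these UMIs can still hold neutrophil RNA, whose part in the ratios was not tested.

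Of the inhibitors, Il1rn, which encodes the IL-1 receptor antagonist, was higher in the combination in all 6 classes. Macrophages held 273 CPM in isotype control, 354 CPM in the titled-CTLA-4 library, 287 CPM in the titled-FcgRII library and 693 CPM in the combination, a combination-to-isotype ratio of 2.54 (2.5 to 2.57) and one of 1.96 (1.93 to 1.98) to the titled-CTLA-4 library. Monocytes held 299.9, 536, 425 and 996 CPM and a ratio of 3.32 (3.18 to 3.46), and intermediate cells 286, 423, 409 and 935 CPM and a ratio of 3.27 (3.15 to 3.39), or 1.98 without integration. In the monocyte clusters led by Ace and by Plac8 it was 5.14 (4.58 to 5.77) and 2.39 (2.29 to 2.5). In all 3 classes the order of the libraries was the same at both ends, with isotype control lowest and the combination highest. Dendritic cells, low in isotype control, had the steepest ratio, with 66.5, 136, 116 and 403 CPM and 6.06 (5.12 to 7.2). Neutrophils held 2537, 4327, 1169 and 4342 CPM, a ratio of 1.71 (1.62 to 1.81), and the titled-CTLA-4 library was level with the combination there at 1.00 (0.955 to 1.05). All 10 macrophage clusters had Il1rn above isotype control beyond the interval, by 1.32- to 3.42-fold. Among the 10 macrophage clusters, Il1rn over all libraries was highest in one led by the heat shock genes Hspa1a and Hspa1b together with Ctsk and Gdf15, at 562, 821, 677 and 1605 CPM. A cluster led by Rsad2 and other interferon-stimulated genes was level with it under isotype control, at 563, 698, 598 and 1165 CPM.

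**Figure D3:**
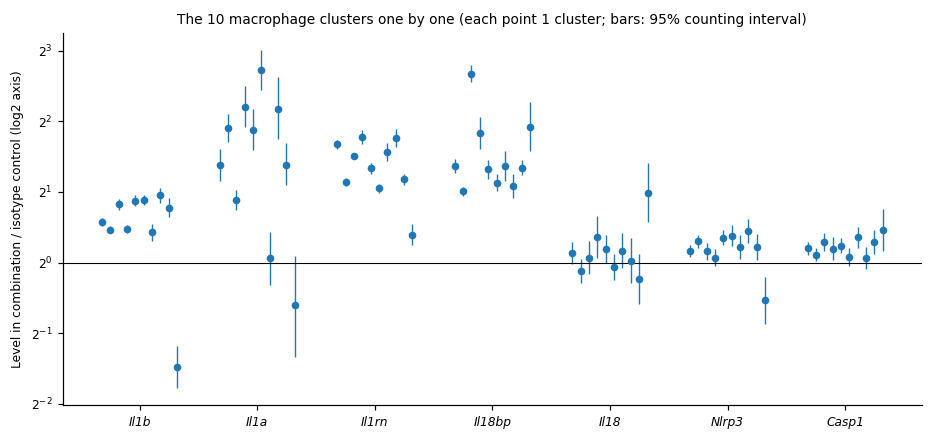
Ratio of the level in the combination to isotype control (log2 axis) in each of the 10 macrophage clusters, 1 point per cluster with its 95% counting interval, for 7 genes. All points of Il1rn (1.32 to 3.42) and Il18bp (2.01 to 6.38) are above 1, and those of Casp1 spread from 1.05 to 1.38.

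Because Il1rn stood further above isotype control than Il1b did, the number of Il1b UMIs per Il1rn UMI fell short of isotype control in the combination in all 6 classes. The ratio is read only between libraries and classes, since the probes of the 2 genes differ. In macrophages it was 1.01 (0.988 to 1.03) in isotype control, 0.802 (0.787 to 0.817) in the titled-CTLA-4 library, 0.776 (0.761 to 0.791) in the titled-FcgRII library and 0.627 (0.620 to 0.635) in the combination. Monocytes went from 3.52 (3.38 to 3.66) to 1.86 (1.81 to 1.91) between isotype control and the combination, with 2.27 and 2.45 in the single-antibody libraries. Dendritic cells, which had the most Il1b per Il1rn of all classes, went from 11.3 (9.68 to 13.3) to 3.33 (3.05 to 3.63). Intermediate cells went from 2.64 (2.54 to 2.75) to 1.54 (1.51 to 1.57). In each of these 4 classes the combination was the lowest of the 4 libraries and its interval overlapped no other. Neutrophils had 2.83, 2.42, 5.26 and 2.26, and their highest value belonged to the titled-FcgRII library, which had the fewest neutrophils, 50. T cells had 1.51, 2.42, 1.13 and 1.09, where the intervals of the titled-FcgRII library and the combination overlapped.

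**Figure D4:**
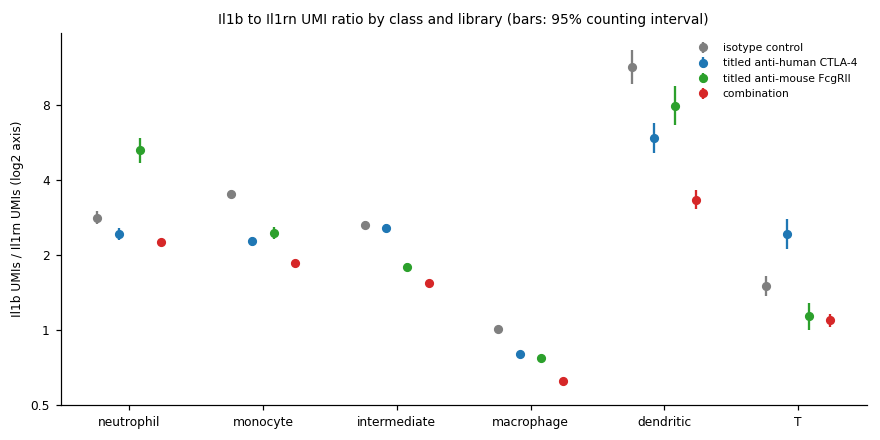
Il1b UMIs divided by Il1rn UMIs (log2 axis) in 6 classes, with libraries in color and 95% counting intervals. The red points of the combination are the lowest of each class, down to 0.627 in macrophages, and dendritic cells of isotype control stand highest at 11.3.

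Il1r2, the decoy receptor, differed more between classes than between libraries in the 2 classes with the highest level. Neutrophils held 737, 698, 599 and 771 CPM, a combination-to-isotype ratio of 1.05 (0.943 to 1.16), and dendritic cells 391, 333, 438 and 391 CPM, a ratio of 1.00 (0.905 to 1.10). Both intervals held 1. The 2 dendritic clusters went opposite ways, with 1.12 (1.01 to 1.24) in the one led by Cd209a and Ccl17, of 202 cells under isotype control and 87 in the combination, and 0.591 (0.366 to 0.942) in the one led by Ccl22, Ccr7 and Fscn1, of 37 and 34 cells. T cells held 68.0, 85.1, 55.3 and 164 CPM and a ratio of 2.42 (2.18 to 2.69), with the combination highest. In monocytes it was 20.2, 15.4, 11.0 and 50.9 CPM and the ratio 2.51 (2.12 to 2.98). Neutrophil RNA scaled to S100a8 would give 14.7 CPM in the combination and 2.18 CPM in isotype control. Monocytes without any S100a8 or S100a9 UMI held 13.4 CPM under isotype control and 32.2 CPM in the combination, a ratio of 2.41 (1.89 to 3.08). The part of neutrophil RNA was not tested. Within the clusters led by Ace and by Plac8 the ratio was 3.39 (2.62 to 4.41) and 2.07 (1.65 to 2.61). The ratio of the class did not hold at a clustering resolution of 0.4, where it was 1.00, nor over monocytes, intermediate cells and macrophages together, where it was 0.903. Intermediate cells went the other way, with 68.1, 87.2, 55.2 and 53.5 CPM and 0.786 (0.712 to 0.866), but had 1.40 without integration. Within the largest intermediate cluster the ratio was 1.00 (0.903 to 1.11). It was 0.472 (0.332 to 0.676) in the one led by Nos2, of 92 and 278 cells, and 1.43 (0.793 to 2.59) in the smallest. Macrophages held 16.4, 16.4, 5.28 and 12.9 CPM, with 5 of 10 clusters below isotype control beyond the interval and 1 above. Within the dendritic class, Il1r2 stood at 435 CPM over all libraries in the cluster with Cd209a and at 97.8 CPM in that with Ccr7, led by genes of migratory dendritic cells. Il1r1, the signaling receptor, was carried by 41, 35, 19 and 37 UMIs in T cells, or 5.69, 5.51, 4.36 and 4.84 CPM, with a ratio of 0.850 (0.530 to 1.36). NK/ILC1 cells had no Il1r1 UMI in any library, where 3 UMIs would be 0.739 CPM in the combination.

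In the IL-18 axis of macrophages Il18bp stood apart between libraries and Il18 hardly did. Il18 in macrophages stood at 36.9 CPM in isotype control, 36.8 CPM in the titled-CTLA-4 library, 35.3 CPM in the titled-FcgRII library and 38.2 CPM in the combination, a ratio of 1.03 (0.986 to 1.09), whose interval held 1. Monocytes held 58.5, 63.3, 67.7 and 72.1 CPM and 1.23 (1.10 to 1.38), and intermediate cells 27.8, 28.5, 27.7 and 34.6 CPM and 1.24 (1.08 to 1.43). Neutrophils, the class with its highest median, held 70.0, 74.8, 40.4 and 115 CPM and 1.64 (1.18 to 2.33), from 43 UMIs in isotype control. Il18bp in macrophages stood at 91.2 CPM in isotype control, 167 CPM in the titled-CTLA-4 library, 73.3 CPM in the titled-FcgRII library and 265 CPM in the combination, a ratio of 2.91 (2.84 to 2.99). The titled-CTLA-4 library lay between, 1.83-fold (1.78 to 1.88) above isotype control, and the titled-FcgRII library below both. Neutrophils held 92.8, 229, 57.3 and 339 CPM and 3.65 (2.79 to 4.87), from 57 UMIs in isotype control. Monocytes gave 54.1, 67.7, 56.4 and 137 CPM and 2.54 (2.30 to 2.82), or 4.10 (3.16 to 5.34) and 1.82 (1.63 to 2.04) within the clusters led by Ace and by Plac8. Dendritic cells gave 71.5, 82.7, 73.9 and 116 CPM and 1.62 (1.32 to 1.99). The titled-FcgRII library was the lowest or next to lowest in each of these classes. All 10 macrophage clusters had Il18bp above isotype control, by 2.01- to 6.38-fold. The subunits of the IL-18 receptor, Il18r1 and Il18rap, lay in lymphocytes instead. Il18r1 stood at 313, 439, 314 and 262 CPM in NK/ILC1 cells and 256, 465, 256 and 281 CPM in T cells, and Il18rap at 342, 447, 319 and 336 CPM and 150.3, 326, 164 and 255 CPM, with combination-to-isotype ratios of 1.69 (1.57 to 1.83) in T cells and 0.981 (0.903 to 1.07) in NK/ILC1 cells. Neutrophils also carried Il18rap, at 145, 125, 202 and 151 CPM.

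Nlrp3 and Casp1, the sensor and the protease of the inflammasome, stood within 2-fold of isotype control in the combination in all 6 classes. Nlrp3 in macrophages stood at 108 CPM in isotype control, 125 CPM in the titled-CTLA-4 library, 111 CPM in the titled-FcgRII library and 128 CPM in the combination, a ratio of 1.18 (1.15 to 1.21). Neutrophils had 547, 898, 727 and 768 CPM and 1.41 (1.25 to 1.58), with the titled-CTLA-4 library highest, and monocytes 167, 194, 185 and 213 CPM and 1.27 (1.19 to 1.36). Each ratio was above 1 beyond counting error and well inside 2-fold. Casp1 stood at 111, 122, 116 and 129.6 CPM in macrophages, a ratio of 1.17 (1.14 to 1.2), and at 176, 193, 204 and 169 CPM in monocytes, a ratio of 0.957 (0.892 to 1.03). Pycard, the adaptor that joins the sensor to caspase-1, was at 503, 482, 499 and 484 CPM in macrophages (0.962, interval 0.949 to 0.975) and at 277, 154, 172 and 171 CPM in neutrophils (0.617, interval 0.513 to 0.744), where isotype control was the highest. Gsdmd, the pore-forming substrate of caspase-1, was at 152, 155, 135 and 188 CPM in macrophages (1.24, interval 1.21 to 1.27). Il1rap, a co-receptor of the signaling IL-1 receptor, was at 166, 215, 128 and 206 CPM in neutrophils (1.24, interval 1.00 to 1.56). Il1rl1, the IL-33 receptor, was at 38.6, 57.0, 28.7 and 39.2 CPM in T cells (1.02, interval 0.860 to 1.2).

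Set against each of the other 3 libraries at once, the combination was at least 2-fold higher for 3 of 8 members in monocytes (Il1a, Il1r2 and Il18bp, beside 0.891% of all genes at 50 CPM in any library), 2 of 7 in intermediate cells (Il1a and Il1rn, beside 1.04%), 1 of 6 in dendritic cells (Il1rn, beside 1.16%) and 3 of 6 in T cells (Il1b, Il1rn and Il18bp, beside 0.704%). In macrophages it was 0 of 6 beside 0.829% of all genes, in neutrophils 0 of 9 beside 0.199%, and in NK/ILC1 cells 0 of 3 beside 0.321%. In macrophages the titled-CTLA-4 library was the nearest, since the combination stood 1.96-fold (1.93 to 1.98) above it for Il1rn, 1.59 (1.56 to 1.63) for Il18bp and 1.96 (1.87 to 2.05) for Il1a. The titled-CTLA-4 library stood at least 2-fold higher for Il1a and Il18bp in neutrophils (2.71% of all genes), Il1a in intermediate cells (0.548%) and Il1rn in dendritic cells (0.305%), and at least 2-fold lower for Il1rn in T cells (4.61%), while neither monocytes nor macrophages had such a member (0.132% and 0.153% of all genes higher). In the titled-FcgRII library Il1rn in neutrophils was lower, at 0.461 (0.409 to 0.518) times isotype control (4.28% of all genes lower). Il1b in NK/ILC1 cells, at 109, 8.07, 37.5 and 52.0 CPM, was at least 2-fold lower in both single-antibody libraries, beside 4.16% and 0.338% of all genes, against the isotype UMIs that lay mostly on 10 cells. These comparisons share libraries and are given side by side.

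The T class also held RNA of macrophage genes, beside which its values are given. Macrophage markers summed to 18769, 8047, 19684 and 15399 CPM in the T class, and to 34910.5 to 43112 CPM in macrophages. Il1b stood in T cells at 158, 109.9, 118 and 337 CPM (combination-to-isotype ratio 2.13, interval 1.99 to 2.29), Il1rn at 105, 45.3, 104 and 309 CPM (2.94, interval 2.71 to 3.19) and Il18bp at 50.1, 48.5, 34.6 and 127 CPM (2.53, interval 2.24 to 2.87). Without integration the Il1b ratio turned to 0.804 and that of Il18bp was 1.38. Of the Il1b UMIs of T cells, 52.6%, 80.9%, 71.1% and 49.3% lay in the 10 cells with most. For Il1r2 these shares were 49.6%, 35.7%, 57.7% and 40.5%, with a UMI in 80, 114, 46 and 136 T cells. T cells with under 1% of their UMIs on macrophage markers, 77% of the class under isotype control and 79.5% in the combination, held Il1b at 108, 70.4, 19.6 and 244 CPM (2.26, interval 1.94 to 2.63), Il1rn at 40.8, 25.5, 56.3 and 163 CPM (4.01, interval 3.17 to 5.11) and Il18bp at 30.3, 29.4, 34.3 and 47.1 CPM (1.55, interval 1.14 to 2.13). Levels of Il1rn and Il18bp in these cells were lower in all 4 libraries than in the whole class, and the part of macrophage RNA in what remained was not tested. Il1r2 behaved otherwise, at 73.0, 102, 93.8 and 284 CPM (3.89, interval 3.27 to 4.65), and was higher in these cells than in the whole class. Il1r1 was at 12.8, 7.97, 11.4 and 11.1 CPM and Casp1 at 88.7, 97.7, 85.6 and 88.2 CPM.

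Regulatory T cells are known to carry Il1r2, so T cells were also split by a Foxp3 UMI. Cells with one numbered 155, 62, 80 and 16, and held Il1r2 at 84.7, 56.0, 77.9 and 42.5 CPM. The other T cells held 52.0, 87.5, 40.0 and 172 CPM. Cells with a Foxp3 UMI were thus the higher in isotype control and in the titled-FcgRII library, and the other T cells in the titled-CTLA-4 library and the combination, where only 19 Il1r2 UMIs fell on 16 cells with Foxp3. The excess of the combination over isotype control in T cells thus lay in cells without a Foxp3 UMI. Il1r1 had 5, 0, 3 and 0 UMIs in cells with a Foxp3 UMI and 36, 35, 16 and 37 in the others. A cell without a Foxp3 UMI can still express it at this depth.

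Shares of cells with a UMI were read after each cell was drawn down to 2000 UMIs. For Il1rn in macrophages the share was 29.3% (27.8 to 30.8) in isotype control, 33.6% (31.9 to 35.3) and 28.3% (26.8 to 29.8) in the titled-CTLA-4 and titled-FcgRII libraries, and 49.5% (47.8 to 51.2) in the combination. Without drawing down it was 71.1% and 89.2% in the first and the last. The differences between the 2 ends exceeded counting error. A share at this depth rises with the level per cell as well as with the number of expressing cells. It does not tell the 2 apart. Il1b was carried by 20.9% (19.6 to 22.2) and 26.2% (24.7 to 27.7) of macrophages in isotype control and the combination (undrawn 44.2% and 57.0%). In monocytes Il1a went from 2.14% (1.31 to 3.21) to 12.9% (10.3 to 15.8) (undrawn 5.44% and 29.2%). In NK/ILC1 cells the shares were 3.56% and 7.59% for Il1rn, 4.66% and 5.02% for Il1b and 0.112% and 1.22% for Il1a. Under isotype control 10 NK/ILC1 cells held 85.9% of the Il1b UMIs and 72.9% of the Il1rn UMIs of that class. Whether these shares reflect RNA of other cells was not tested. The median depth of NK/ILC1 cells was 4588 and 5980.0 UMIs, beside 18018 and 24197 UMIs of macrophages, before drawing down. Cells under 2000 UMIs, left out here, numbered 9 and 16 macrophages and 42 and 32 NK/ILC1 cells.

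Which cells supplied the RNA of a whole library depends on level and number together. Per the article, a gradient for viable lymphocytes came before the CD45 sort. The effect of that step on the numbers of each class, neutrophils included, was not tested. Macrophages held 36.9% of all Il1b UMIs under isotype control and 35.8% in the combination, and neutrophils 7.25% and 17.9% although they made up 1.5% and 6.48% of kept cells. For Il1rn, macrophages held 59.8% and 57.7%, and for Il18bp 56.6% and 66.1%. Neutrophils supplied 4.18% and 8.00% of Il1rn UMIs. Il1r2 had its UMIs spread over classes, with 21.3% from neutrophils, 22.1% from the mixed cluster, 16% from macrophages and 15.9% from T cells in the combination. Over all kept cells Il1b stood at 393, 418, 297 and 687 CPM, 1.75 (1.73 to 1.77) in the combination over isotype control, and 1.56 (1.55 to 1.58) without the neutrophils. Il1f9 was 8.36 (7.58 to 9.23) higher over all cells.

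**Figure D5:**
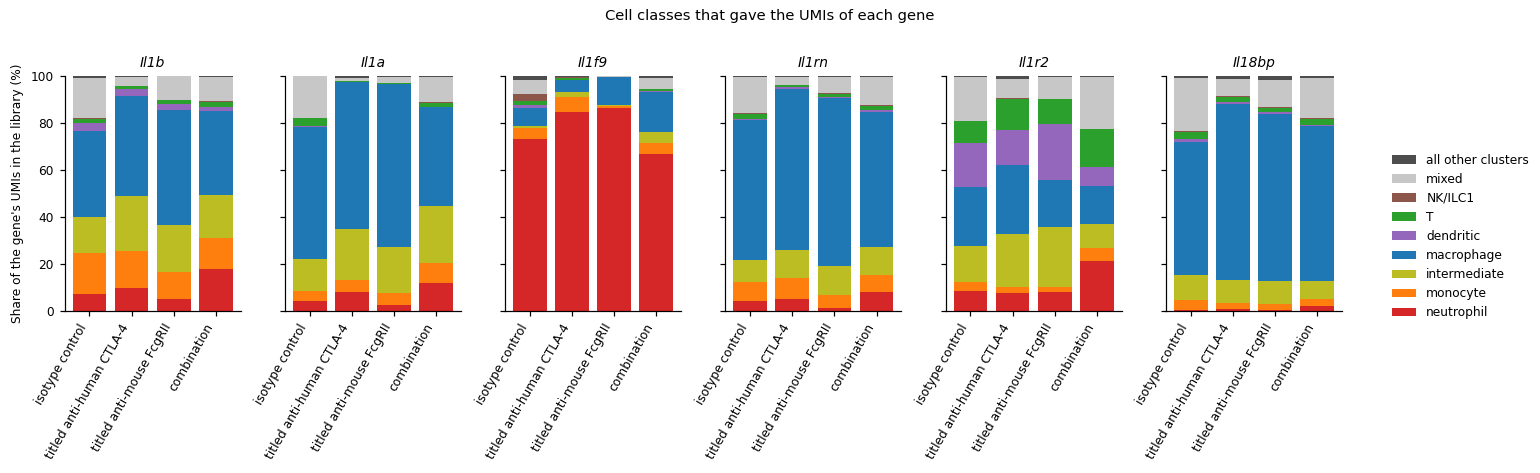
Share of the UMIs of 6 genes (%) that each cell class contributed, with 1 stacked bar per library. Macrophages give most of the Il1rn and Il18bp UMIs, 66.1% of Il18bp in the combination, and neutrophils most of the Il1f9 UMIs, 66.7% there.

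The wider pathway was read from a list of 44 other genes of receptors, adaptors, kinases, sensors and executors of IL-1 signaling and inflammasomes. In neutrophils 4 of the 25 at 50 CPM stood at least 2-fold higher and 1 lower in the combination against isotype control, beside 3.42% and 6.96% of all genes. The counts higher were 1 of 25 in monocytes beside 2.36% of all genes, 1 of 24 in intermediate cells beside 2.9%, 1 of 21 in macrophages beside 2.03%, 2 of 23 in dendritic cells beside 2.31% and 1 of 24 in T cells beside 1.27%. None stood lower in these 5 classes, beside 0.39%, 1.35%, 0.582%, 1.45% and 0.543% of all genes. Their median ratio was 0.962 in macrophages and 1.01 in monocytes, close to that of all genes (0.942 and 0.942). In 3 cases a listed gene stood at least 2-fold apart from each of the other 3 libraries in the combination. Nlrp12, a sensor known as a brake on inflammation, was lower in neutrophils at 145, 131, 192 and 57.0 CPM, a ratio of 0.394 (0.297 to 0.523), where 0.463% of all genes stood that far below each of the others. Ninj1, which ruptures the membrane of dying cells, was higher in dendritic cells at 70.7, 74.2, 63.8 and 151 CPM (2.14, interval 1.76 to 2.60) and in T cells at 142, 77.4, 109 and 287 CPM (2.02, interval 1.88 to 2.18). Ninj1 was also the 1 listed gene counted as higher in each of monocytes, intermediate cells and macrophages, where its ratio to isotype control was 2.5 (2.37 to 2.63), 2.70 (2.58 to 2.82) and 2.05 (2.02 to 2.08). Those higher in neutrophils were Mefv with 2.79 (2.21 to 3.57), Casp4 with 2.66 (2.00 to 3.59), Tlr2 with 2.11 (1.79 to 2.51) and Ninj1 with 2.05 (1.87 to 2.26), and Casp4 was the other one in dendritic cells, with 2.29 (1.83 to 2.88). These 3 genes, and Ninj1 outside dendritic and T cells, were named after their values were seen.

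Likeness of pattern was described by Pearson's r of log2(CPM + 10) over 20 points, 5 classes in 4 libraries, among 6567 genes with at least 50 CPM at 1 point. The points of 1 library share its depth and handling and those of 1 class its cells, so the values are a description. Most like Il1b were Oasl2 (0.983), Ptafr (0.977) and Trim25 (0.973), the first an interferon-stimulated gene and the next the receptor of platelet-activating factor. Il1a went with Ier3 (0.966), Cxcl2 (0.961), a chemokine that attracts neutrophils, and Arg2 (0.960), an arginase. Il1rn went with Acod1 (0.963), which makes itaconate in activated macrophages, Slc31a2 (0.961) and Card19 (0.960). For Nlrp3 they were Sh2b2 (0.986), the chemokine receptor gene Ccr1 (0.985) and Cd300lf (0.980), and for Il1r2 Gfod1 (0.940), Jaml (0.938) and Bhlhe40 (0.931). Lower values were reached for Il18 with Rhou (0.929), Pilrb1 (0.924) and Mtm1 (0.921), for Casp1 with Ldlrad3 (0.912), Plod3 (0.903) and Arhgef10l (0.90), and for Il18bp with Plekhn1 (0.878), Srxn1 (0.826) and Creb5 (0.822).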

How the data were processed

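Per the article, a gradient for viable lymphocytes followed the digestion of the tumors. Viable CD45+ tumor cells were sorted, fixed and hybridized with Flex probes. The authors deposited UMI counts, whole numbers per gene and cell without normalization. The submitters' processing notes name Cell Ranger 7.0.0 and mm10, and per the file headers the version was 7.2.0. The deposited matrices held 6097 to 8173 cells and 129151823 to 196362818 UMIs per library. Cells with at least 500 genes and at most 10% mitochondrial UMIs were kept. The 5% of cells with the highest Scrublet score (scanpy 1.11.5) were left out of each library, because the automatic threshold called between 1 and 3 cells per library and so had not worked.

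Libraries were normalized with sctransform 0.4.2 and integrated by anchors in Seurat 5.3.0 (R 4.3.3) on 3000 features, without the 10 genes, of which 8 were among the variable ones, and clustered with 30 principal components at a resolution of 0.8 into 28 clusters. Embeddings rather than corrected expression values were integrated. Clusters were named from marker lists. The rules for intermediate, mixed and unnamed clusters were set after the clusters were seen. The genes and lists were chosen with earlier results of these data known. Markers of each class were present in that class at 50 CPM or more, with at most 2 of its list below.

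Levels are UMIs summed over a class per 1000000 (CPM), with exact Poisson intervals, and ratios have exact conditional intervals, computed with scipy 1.17.1, pandas 2.3.3 and numpy 2.4.6 (Python 3.11.15). In the counts over all genes a side with 0 UMIs was set at a floor of 3 UMIs. Shares have exact binomial intervals. A gene was called at 2-fold or more among genes with at least 50 CPM. Named were the 10 genes, their partners Il18r1, Il18rap, Il1rap, Il1rl1, Pycard and Gsdmd, listed genes at least 2-fold apart from each of the other 3 libraries in the combination, and the 3 genes most like each of 8 members. Leading genes of clusters were named after they were seen. Of the listed genes, 3 more were not among the genes counted. The rule was tested on simulated counts in 5 classes, where it recovered 97.5% to 100.0% of 200 genes changed 4-fold and called 0 to 7 unchanged genes. The simulated counts held counting error only. They had no variation between libraries or cells, so they do not show how often such variation leads to a call. No replicate, and so no test, was possible. Alternatives changed the clustering, the cell filters, the scaling and the thresholds. Taking 3 myeloid classes together, and leaving out cells with S100a8 or S100a9 UMIs, were added after seeing the data.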

Additional observations from a re-analysis of the deposited data

Results flagged for a closer look

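The combination-to-isotype ratio of Il1b pointed opposite ways in 2 lymphocyte classes. It was 2.13 in T cells and 0.476 in NK/ILC1 cells, from 158 and 337 CPM in T cells and 109 and 52.0 CPM in NK/ILC1 cells. The 10 cells with most Il1b held 85.9% of these UMIs in NK/ILC1 cells of isotype control. For Il1rn, the ratio of the titled-CTLA-4 library to isotype control was 2.05 in dendritic cells and 0.431 in T cells, beside macrophage markers at 18769 CPM in T cells of isotype control and 8047 CPM in those of the titled-CTLA-4 library. With 1 library per group, neither difference between classes was tested, and the part of other cells' RNA in them was not tested.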

How the results depend on the processing

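No paired analysis was possible because each group had 1 library. Leaving out a replicate was likewise not possible. Of the combination-to-isotype ratios recomputed under the alternatives listed at the outset, 339 moved by less than their counting interval, 179 moved by more in the same direction or without a call, and 2 called ones turned, Il1r2 in monocytes to 1.00 at a resolution of 0.4 and Il1b in T cells to 0.804 without integration. With monocytes, intermediate cells and macrophages merged, an alternative chosen after seeing the data, Il1r2 stood at 0.903. Over all alternatives tried the ratio ranged from 2.15 to 2.87 for Il1rn in macrophages, 2.74 to 3.15 for Il18bp in macrophages, 4.00 to 12.6 for Il1a in monocytes and 1.01 to 1.69 for Il1b in neutrophils. No intermediate class arose at a resolution of 0.4 or with no doublets left out.

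The Il1b to Il1rn ratio of the combination divided by that of isotype control stayed below 1 in every alternative that moved it. Without integration it was 0.739 in neutrophils, 0.481 in monocytes, 0.639 in intermediate cells, 0.868 in macrophages and 0.272 in T cells. With 20 principal components it was 0.628 in monocytes, 0.649 in macrophages and 0.631 in T cells, and with no doublets left out 0.604, 0.646 and 0.557. Stricter cell filters gave 0.673 in neutrophils. A resolution of 1.2 gave 0.598 in macrophages and 0.551 in T cells, a resolution of 0.4 gave 0.469 in T cells, and T cells with few macrophage UMIs gave 0.563.

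Members at least 2-fold higher numbered 5 in neutrophils with TMM scaling (beside 7.84% of all genes under that setting). At 1.5-fold they numbered 5 in neutrophils (10.3%), 4 in intermediate cells (6.03%) and 3 in dendritic cells (6.05%). With no minimum above 3 UMIs they numbered 4 in intermediate (4.3%) and 2 in dendritic cells (4.98%), and without integration 1 in intermediate cells (0.463%) and 2 in T cells (1.49%). All genes of the 6 classes stood higher at shares of 3.53 to 5.99% with no minimum, 3.54 to 10.3% at 1.5-fold and 0.463 to 4.89% without integration, and lower at 2.94 to 15.6%, 2.49 to 22.7% and 0.176 to 5.65%. Listed genes higher in neutrophils numbered 7 with TMM scaling and 7 at 1.5-fold, and those lower 2 without integration, with 20 principal components, from 10 CPM and with no minimum, and 3 at 1.5-fold. With no minimum, listed genes higher and lower numbered 5 and 1 in monocytes and 4 and 2 in macrophages, those lower 3 in intermediate and 2 in dendritic cells, and those higher 2 in T cells. At 1.5-fold the counts higher and lower were 2 and 2 in monocytes and 4 and 2 in dendritic cells, and 3 higher in T cells. Without integration 0 were higher in intermediate cells, 0 higher and 1 lower in dendritic cells, and 0 higher in T cells. The count higher was 0 in dendritic cells with no doublets left out and 0 in T cells with 20 principal components or few macrophage UMIs, and from 10 CPM 1 was lower in dendritic cells. The cause of these shifts was not tested. Depth limits Il1r1 most, at 19 to 41 UMIs in the T cells of a library, and neutrophils number 50 to 468 cells.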

Other observations

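Outside the classes compared, an unnamed cluster led by Mcpt8, a protease gene of basophils, with Gata2 and Cd200r3, held 33, 10, 3 and 12 cells. Il1b stood there at 1022 CPM under isotype control and 3401 CPM in the combination. It had no UMI in the single-antibody libraries, so that its level over all libraries, 1306 CPM, rests on the former 2. In the 12 cells of the combination S100a8 stood at 2926 CPM and Il1f9 at 91.4 CPM, beside 7.62 CPM of S100a8 and no Il1f9 UMI under isotype control, and the part of neutrophil RNA was not tested. Nlrp3 stood at 404, 501, 354 and 402 CPM, above macrophages of the same library in all 4. Il1r1 had its highest level of all clusters in a cluster led by the immunoglobulin genes Igha and Igkc and the keratin genes Krt19 and Krt8. It stood there at 29.3 CPM over all libraries, in 233 cells with a median of 2904 UMIs. In the dendritic cluster led by Ccl22 and Ccr7, Il1b stood at 569.5 CPM under isotype control and 1749 CPM in the combination, from 37 and 34 cells. These clusters were singled out after their values were seen.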
